A study of Mus musculus with 19 samples.

Results

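The genes whose symbol begins with Kcn encode the pore-forming and auxiliary subunits of potassium channels. All symbols of that form in the array annotation were taken, each represented by the probe set that carried the symbol alone and had the highest mean over the 19 arrays. This gave 92 Kcn genes of 19938 genes with 1 symbol, on 95 probe sets, and 3 of the genes (Kcna2, Kcnh8 and Kcnma1) had more than 1 probe set. All 92 matched a RefSeq gene by Entrez number. RefSeq listed 89 as protein coding and the other 3, Kcnd3os, Kcnmb4os1 and Kcnmb4os2, are antisense transcripts with probe sets of their own.

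Potassium channels let potassium leave the cell and so set the resting potential, end the action potential and space spikes apart. In hippocampal neurons, voltage-gated subunits of the a, b, c, d, h and q letters repolarise axons, somata and dendrites. Calcium-activated subunits produce the after-hyperpolarisation, G-protein-coupled inward rectifiers answer inhibitory transmitters, and subunits with a pair of pore domains carry background leak. Astrocytes, microglia, vessel walls and the choroid plexus use their own members of the family.

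RNA was measured on Affymetrix whole-transcript arrays in hippocampus of C57BL/6J mice aged 6 months. The groups were APP-PS1 mice on ibuprofen chow (n = 5), APP-PS1 mice on control chow (n = 5), wild-type littermates on ibuprofen chow (n = 5) and wild-type littermates on control chow (n = 4). APP-PS1 mice carry APPSwe and PS1deltaE9, a mutant human amyloid precursor protein and a presenilin lacking an exon, driven by the mouse prion promoter. Ibuprofen, an inhibitor of cyclooxygenases, was given at 375 ppm from 3 to 6 months of age, and the control mice ate the same chow without it. The wild-type controls carry neither transgene.

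Values are log2 signals per probe set, and all differences are in log2 units. Kcn genes covered the range of signal on the array, with 57 of 92 above the median gene, 28 in the highest of 4 equal bands of signal and 10 in the lowest. The highest means belonged to Kcnab2, Kcnip3, Kcnd2, Kcnj3, Kcnip4, Kcna2, Kcnk1, Kcna1, Kcnma1 and Kcnab1, from 12.84 to 11.45, and the lowest to Kcnj14, Kcnk18 and Kcnj1, from 6.48 to 6.32; signals of different probe sets are not on a shared scale of abundance. Prnp, whose promoter drives the transgenes, lay at 13.36 to 13.44 and 13.31 to 13.44 in APP-PS1 mice on ibuprofen and control chow, against 12.67 to 12.83 and 12.68 to 12.75 in wild-type mice on the same diets, and no APP-PS1 array overlapped a wild-type array. Pairs of arrays correlated at 0.980 to 0.999 over genes. Against all probe sets, 3 arrays had a median correlation with the others under 0.99 and stand apart: APP-PS1 control replicate 1 (0.9895), wild-type ibuprofen replicate 1 (0.987) and wild-type ibuprofen replicate 5 (0.974). Wild-type ibuprofen replicate 5 held the highest value of 37 of the 92 Kcn genes and the lowest of 10. The labels name no litter, batch or sex, and do not say how replicates were taken, so the spread between samples may be partly technical.

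The sequences shown here are the 250 bases before the transcription start of 3 Kcn genes that the results turn on: Kcng3, which was lower in APP-PS1 than in wild-type mice on ibuprofen chow, and Kcnj13 and Kcne2, which varied together from array to array. They come from RefSeq on GRCm38.p6, are written 5′ to 3′ on the strand of the gene, and have motifs in capitals. Of the 92 genes, 70 had a window from the RefSeq promoter table in the set used here, in 95 windows, and Kcnq3 is not among them. Kcng2 and Kcnn2 were left out of this set because of their position in the genome, whether or not they matched. The motifs searched on both strands were TATAAA (the TATA box), GGGCGG (the GC box), CCAAT (the CCAAT box) and TGACG (the core of a cyclic AMP response element), with TAATCC and CACGTG, which are in none of the printed windows. On the other strand the GC box reads CCGCCC, the CCAAT box reads ATTGG and TGACG reads CGTCA. No motifs overlap in these windows.
Kcng3 (chr17:83631896-83632145, minus strand): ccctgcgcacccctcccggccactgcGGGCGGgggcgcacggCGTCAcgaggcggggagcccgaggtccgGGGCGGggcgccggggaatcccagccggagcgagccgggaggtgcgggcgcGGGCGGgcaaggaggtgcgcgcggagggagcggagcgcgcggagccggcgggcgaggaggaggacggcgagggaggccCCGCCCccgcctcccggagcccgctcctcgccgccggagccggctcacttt
Kcnj13 (chr1:87394730-87394979, minus strand): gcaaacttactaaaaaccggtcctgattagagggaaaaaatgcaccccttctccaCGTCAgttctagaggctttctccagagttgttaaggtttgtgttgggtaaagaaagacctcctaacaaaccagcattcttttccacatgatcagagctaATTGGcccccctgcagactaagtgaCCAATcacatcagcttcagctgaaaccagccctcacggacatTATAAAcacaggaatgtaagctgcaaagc
Kcne2, upstream start (chr16:92292139-92292388, plus strand): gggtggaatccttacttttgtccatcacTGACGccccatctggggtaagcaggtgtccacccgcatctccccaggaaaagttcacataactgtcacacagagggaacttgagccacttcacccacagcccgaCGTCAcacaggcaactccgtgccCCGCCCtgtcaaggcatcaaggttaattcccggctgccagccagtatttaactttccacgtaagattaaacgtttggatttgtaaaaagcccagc
The Kcng3 window was 82.4% G and C with 41 CpG and 4 GC boxes, against a median of 52.4% and 6 CpG over 32851 windows of all genes. The Kcnj13 window was 45.2% G and C with 3 CpG, and had TATAAA at 29 to 24 bases before the start. The Kcne2 window was 52.4% G and C with 9 CpG, and had 1 GC box and 2 matches to TGACG. RefSeq gives Kcne2 a second, downstream start (window chr16:92295366-92295615), whose window was 48.0% G and C with 1 CpG and held none of the motifs. Over the 95 Kcn windows used, 3.16% held TATAAA and 44.2% the GC box, against 12.4% and 32.7% of all windows. The set of all windows was not limited by position in the same way, so the shares are of unlike sets. CCAAT was in 29.5% of Kcn windows, against 33.8% of all, and TGACG in 15.8%, against 17.8%. A match is a string of letters, not a measured site.

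Of the 7 comparisons made, the one with Kcn genes past the threshold was between genotypes on ibuprofen chow. Kcnq3, a subunit of the M-current that muscarinic receptors shut off, and Kcng3, a silent subunit that modifies channels of the Kcnb letter, were lower in APP-PS1 mice than in wild-type mice eating the same chow. These were the 2 of 92 Kcn genes past the threshold of limma, an adjusted p under 0.05 (Benjamini-Hochberg over 19938 genes), and 0.271% of all genes passed in either direction. At an unadjusted p under 0.05, 28 Kcn genes were lower and 8 higher, or 30.4% and 8.70%, against 18.2% and 6.25% of all genes. In all, 55 Kcn genes (59.8%) were below 0, against 62.2% of all genes. The median difference was -0.09 over the Kcn genes and -0.05 over all genes. In 8 Kcn genes (8.70%) every APP-PS1 array lay below every wild-type array, against 2.06% of all genes, and in 0 every one lay above, against 0.231%. Where a neuronal transcript is lower in whole tissue, fewer cells of a type and less RNA per cell cannot be told apart.

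**Figure D1:**
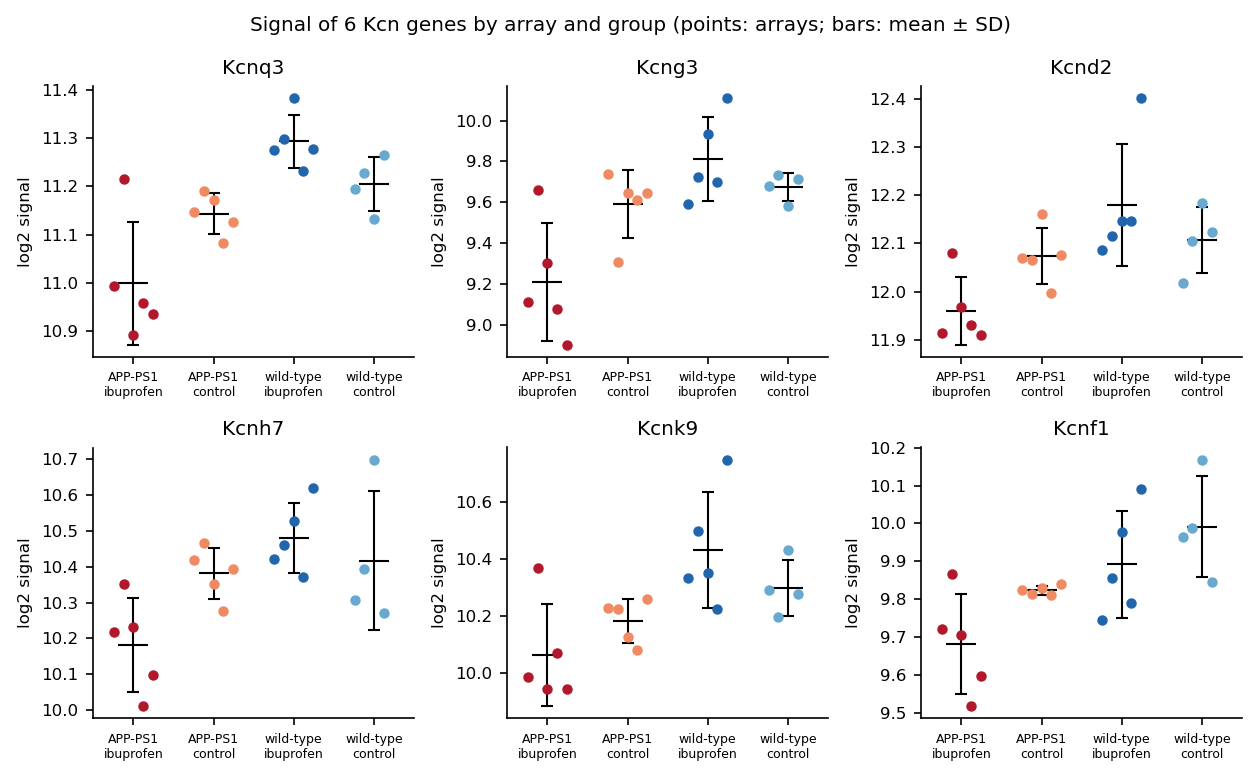
Log2 signal of 6 Kcn genes in each array (points), with group means and SD (bars), for APP-PS1 ibuprofen, APP-PS1 control, wild-type ibuprofen and wild-type control mice. For Kcnq3, Kcnd2 and Kcnh7 all 5 APP-PS1 ibuprofen arrays lay below all 5 wild-type ibuprofen arrays, and for Kcng3 and Kcnk9 replicate 2 of the APP-PS1 ibuprofen group lay within the wild-type range.

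Kcnq3 had log2 signals of 10.99, 11.21, 10.89, 10.96 and 10.94 in APP-PS1 ibuprofen mice and of 11.15, 11.19, 11.17, 11.08 and 11.13 in APP-PS1 control mice. In wild-type ibuprofen mice it had 11.28, 11.30, 11.38, 11.23 and 11.28, and in wild-type control mice 11.19, 11.23, 11.13 and 11.26. All 5 APP-PS1 ibuprofen arrays lay below every wild-type ibuprofen array, with replicate 2 close to the lowest of them. The difference was -0.29 ± 0.05 (SE), a ratio of 0.815, with limma adjusted p = 0.0128. On control chow the genotypes overlapped, at -0.06 ± 0.06 (SE, adjusted p = 0.953). Ibuprofen in APP-PS1 mice gave Kcnq3 -0.14 ± 0.05 (SE, adjusted p = 0.716), a comparison that shares the APP-PS1 ibuprofen arrays with the genotype comparison on that chow. Without APP-PS1 ibuprofen replicate 3 or 4 the genotype difference had adjusted p = 0.0512 or 0.0549, and without the 3 arrays that stand apart it was -0.31 ± 0.06 (SE) with adjusted p = 0.0449.

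Kcng3 had log2 signals of 9.11, 9.66, 9.30, 9.08 and 8.90 in APP-PS1 ibuprofen mice and of 9.74, 9.31, 9.64, 9.61 and 9.65 in APP-PS1 control mice. In wild-type ibuprofen mice the signals were 9.59, 9.72, 9.94, 9.70 and 10.11, and in wild-type control mice 9.68, 9.73, 9.58 and 9.71. The groups on ibuprofen chow overlapped through replicate 2 of the APP-PS1 mice alone. The difference was -0.60 ± 0.12 (SE), a ratio of 0.660, with limma adjusted p = 0.0200. It was -0.09 ± 0.12 (SE, adjusted p = 0.970) on control chow and -0.38 ± 0.12 (SE, adjusted p = 0.716) for ibuprofen in APP-PS1 mice. The interaction of genotype and ibuprofen was -0.51 for Kcng3 and -0.23 for Kcnq3, both with limma adjusted p = 0.208. The Kcng3 difference kept its sign but missed the threshold once the 3 arrays standing apart were left out (adjusted p = 0.0675), and also without APP-PS1 ibuprofen replicate 1 (0.0795), 4 (0.0904) or 5 (0.0865) or wild-type ibuprofen replicate 3 (0.0712) or 5 (0.0653).

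Markers of hippocampal neuron types were mostly below 0 in the same comparison, as were most genes on the array. The marker lists were chosen with earlier results of these data known. Of 13 dentate granule cell markers, Dsp, Lct, Prox1 and Tdo2 were past the threshold on ibuprofen chow. The 13 markers had a median of -0.29, and 11 were below 0. Their mean log2 signal per array was 9.66, 10.03, 9.51, 9.72 and 9.78 in APP-PS1 ibuprofen mice, against 10.15, 10.04, 10.14, 9.99 and 10.34 in wild-type ibuprofen mice, and APP-PS1 ibuprofen replicate 2 was again the array nearest wild-type. All 7 measured markers of CA1 pyramidal cells, 7 of 8 of CA3 pyramidal cells and 8 of 10 of interneurons were below 0. Their medians were -0.13, -0.06 and -0.15, and 0 were past the threshold. Of all genes, 62.2% were below 0 on ibuprofen chow and 0.271% passed the threshold. In the highest band of mean signal and the next one down, 81.2% and 84.7% of all genes were below 0. On control chow 7 of the 13 dentate markers, with a median of -0.01, were below 0, against 42.1% of all genes. Ibuprofen in APP-PS1 mice gave 9 of the 13 below 0 and a median of -0.08, where 58.2% of all genes were below 0. In wild-type mice ibuprofen gave 2 of the 13 below 0 and a median of 0.18, where 33.2% of all genes were. The part of these marker differences in the Kcn differences was not tested.

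Among voltage-gated pore subunits on ibuprofen chow, the gene that differed most in each of the d, c and b letters was lower. Kcnd1 and Kcnc4 lay at -0.009 and -0.001, and the b letter had 1 measured gene. Kcnd2, the pore of the transient A-type current of pyramidal cell dendrites, had 11.91, 12.08, 11.97, 11.93 and 11.91 in APP-PS1 mice, against 12.09, 12.11, 12.15, 12.15 and 12.40 in wild-type mice. The groups did not overlap, and the difference of -0.22 ± 0.05 (SE) had limma adjusted p = 0.0656, short of the threshold. Kcnd3, the other main A-type pore, differed by 0.04 ± 0.05 (SE, 95% interval -0.06 to 0.15). Kcnc2, a fast channel of spiking interneurons, had 10.68, 10.77, 10.52, 10.68 and 10.76 in APP-PS1 mice and 10.95, 10.79, 10.86, 10.78 and 11.04 in wild-type mice, without overlap (-0.20 ± 0.06 SE, adjusted p = 0.131). Its close relative Kcnc1 differed by -0.16 ± 0.07 (SE, adjusted p = 0.187). Kcnb2, a delayed rectifier pore with which silent subunits assemble, differed by -0.23 ± 0.08 (SE, adjusted p = 0.146).

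Of the 8 Kcna genes, the Shaker-type pores, 4 were below 0 and 4 above. Kcna4, an inactivating presynaptic pore, differed by -0.28 ± 0.08 (SE, adjusted p = 0.123) and Kcna1, which guards axons against repetitive firing, by -0.12 ± 0.05 (SE, adjusted p = 0.156). Kcna2, the usual partner of Kcna1 in axons, differed by 0.01 ± 0.04 (SE, 95% interval -0.07 to 0.10), and its other probe set had group means of 9.71 in APP-PS1 and 9.73 in wild-type mice on ibuprofen chow. All 3 Kcnab genes, whose proteins are the cytoplasmic β subunits of Kcna channels, were below 0, between -0.17 and -0.06. Kcnab2, which carried the highest Kcn signal of all, gave -0.06 ± 0.03 (SE), and Kcna7, a muscle member of the a letter, 0.17 ± 0.08 (SE, adjusted p = 0.213).

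The silent subunits, which form no channel alone, included the largest voltage-gated difference. Besides Kcng3, Kcng2 differed by -0.26 ± 0.10 (SE, adjusted p = 0.152), Kcnv1 by -0.25 ± 0.10 (SE, adjusted p = 0.156) and Kcnf1 by -0.21 ± 0.07 (SE, adjusted p = 0.145). Wild-type ibuprofen replicate 5, which stands apart, had Kcng2 at 11.16, with the others of its group at 10.43 to 10.68. Within that group Kcnv1 was highest in replicates 5 and 1, which both stand apart, at 11.17 and 10.97. The others of the group had Kcnv1 at 10.54 to 10.80. Kcng1 and Kcng4 lay at 0.00 and 0.03, and Kcnv2, a silent subunit of the retina, at 0.17 ± 0.07 (SE, adjusted p = 0.158). The modulators of Kcnb channels Kcns1, Kcns2 and Kcns3 gave -0.12 ± 0.07, -0.12 ± 0.08 and 0.03 ± 0.07 (SE). Kcnf1 was the one Kcn gene at an unadjusted p under 0.05 in the same direction on both diets.

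In the h letter, the ether-a-go-go family, 5 of 7 genes were below 0 and 3 of them at an unadjusted p under 0.05. Kcnh7 had 10.22, 10.35, 10.23, 10.01 and 10.10 in APP-PS1 ibuprofen mice, against 10.42, 10.46, 10.53, 10.37 and 10.62 in wild-type ibuprofen mice. The groups did not overlap, though APP-PS1 replicate 2 and wild-type replicate 4 lay close together, and the difference was -0.30 ± 0.08 (SE, adjusted p = 0.0824). Kcnh5 also had no overlap, at -0.23 ± 0.10 (SE, adjusted p = 0.181), and Kcnh3, found mainly in forebrain, differed by -0.20 ± 0.08 (SE, adjusted p = 0.156). Of the 3 measured q genes, Kcnq5, another M-current subunit, differed by -0.12 ± 0.06 (SE, adjusted p = 0.218) and Kcnq1, the cardiac and epithelial member, by 0.19 ± 0.09 (SE, adjusted p = 0.195).

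**Figure D2:**
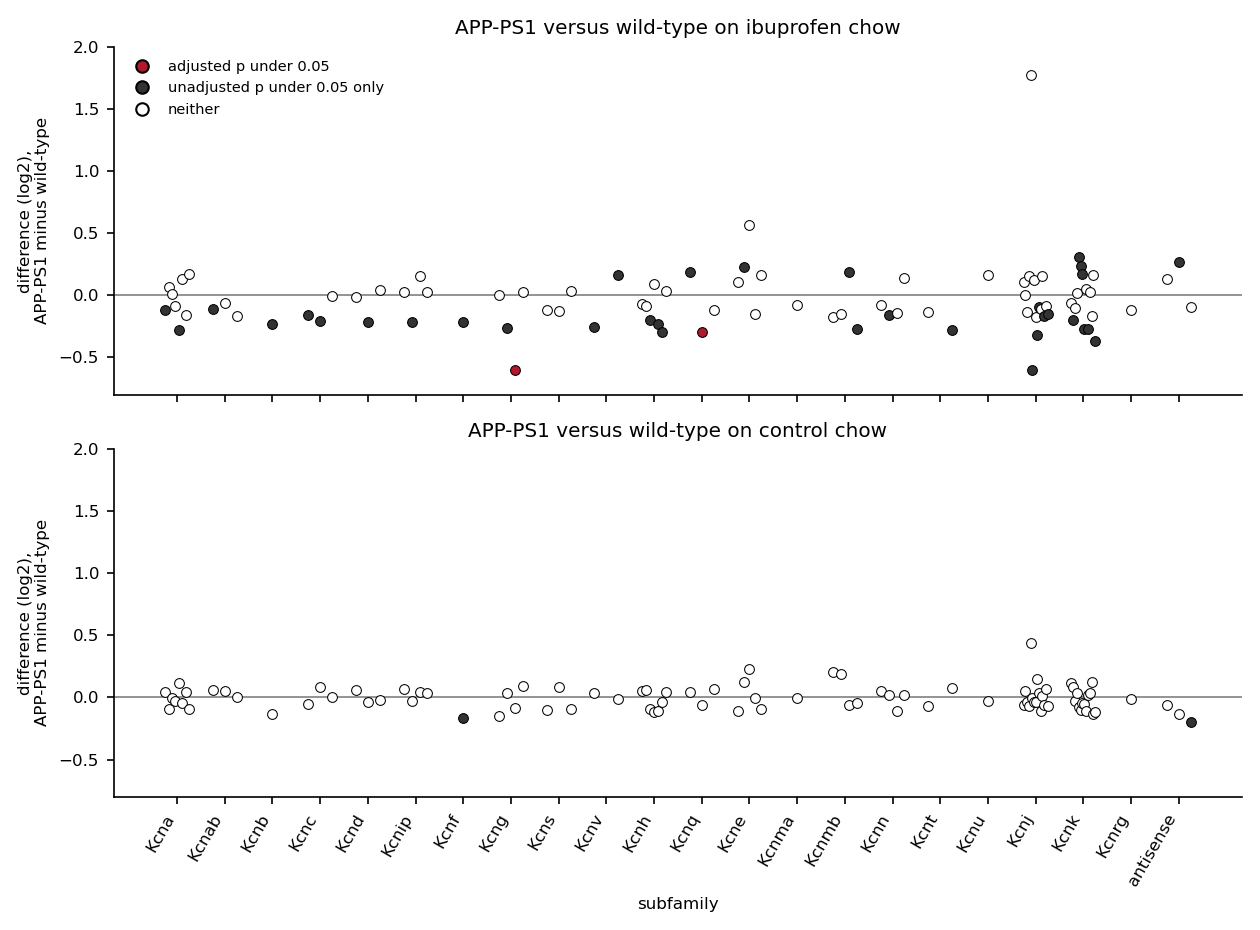
Genotype difference (APP-PS1 minus wild-type, log2) of each Kcn gene by subfamily letter, on ibuprofen chow (top) and control chow (bottom). Red points passed an adjusted p under 0.05 (Kcnq3 and Kcng3), black points an unadjusted p under 0.05 alone, and open points neither; the point at 1.77 is Kcnj13.

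Of the calcium- and sodium-activated channels and their subunits, Kcnma1, both Kcnt genes, 3 of 4 Kcnn and 3 of 4 Kcnmb genes were below 0 on ibuprofen chow, where 62.2% of all genes were. Kcnn2, the small-conductance channel of CA1 spines and after-hyperpolarisation, had 10.28, 10.35, 10.38, 10.31 and 10.28 in APP-PS1 mice, against 10.58, 10.50, 10.49, 10.41 and 10.40 in wild-type mice. These did not overlap (-0.16 ± 0.05 SE, adjusted p = 0.132). Its relative Kcnn1 gave -0.08 ± 0.07 (SE). Kcnt2, a sodium-activated pore, differed by -0.28 ± 0.09 (SE, adjusted p = 0.125), with APP-PS1 replicate 3 lowest at 9.83 and replicate 2 within the wild-type range at 10.49. Kcnma1, the pore of the large-conductance channel, differed by -0.07 ± 0.04 (SE, 95% interval -0.16 to 0.01), and Kcnmb4, its neuronal β subunit, by -0.27 ± 0.09 (SE, adjusted p = 0.141). Kcnmb4os1, antisense to Kcnmb4, was on the other side at 0.27 ± 0.13 (SE, adjusted p = 0.197), and Kcnmb4os2 lay at -0.10 ± 0.08 (SE). For Kcnmb4os1, wild-type ibuprofen replicate 5, which stands apart, was at 6.96 and the others of its group at 7.44 to 7.72. Kcnmb3, another β subunit, was higher at an unadjusted p under 0.05, at 0.18 ± 0.08 (SE, adjusted p = 0.186), and Kcnn4 lay above 0 at 0.14 ± 0.08 (SE, adjusted p = 0.248).

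The 15 inward rectifiers ranged from -0.60 to 1.77 on ibuprofen chow. Of the 4 G-protein-coupled subunits, which GABA and adenosine receptors open, Kcnj3, Kcnj6 and Kcnj9 were lower at an unadjusted p under 0.05, at -0.10 ± 0.03, -0.16 ± 0.06 and -0.15 ± 0.07 (SE), with adjusted p of 0.145, 0.145 and 0.194. The other, Kcnj5, best known from the heart, lay above 0 at 0.15 ± 0.08 (SE, adjusted p = 0.229). Kcnj3 had 11.75, 11.70, 11.67, 11.71 and 11.74 in APP-PS1 mice, against 11.80, 11.81, 11.75, 11.82 and 11.87 in wild-type mice, groups that meet at 11.75 to 2 decimals without overlapping. Kcnj2, a strong rectifier of neurons and vessels, differed by -0.32 ± 0.13 (SE, adjusted p = 0.160), with wild-type replicates 1 and 5 highest at 8.24 and 8.43. Kcnj14, another strong rectifier, gave -0.60 ± 0.18 (SE, adjusted p = 0.123), with wild-type replicate 5 at 7.45 and the other 4 wild-type arrays at 6.60 to 6.63. With the 3 arrays standing apart left out it was -0.44 ± 0.16 (SE), with adjusted p = 0.336. Kcnj11, the pore of the ATP-sensitive channel, differed by -0.13 ± 0.08 (SE, adjusted p = 0.263), and Abcc8, its regulatory sulfonylurea receptor, by -0.32 ± 0.07 (SE, adjusted p = 0.0508).

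The 14 leak channels of the k letter went in both directions. Kcnk9, an acid-sensitive leak channel, had 9.99, 10.37, 9.94, 10.07 and 9.94 in APP-PS1 mice, against 10.33, 10.50, 10.35, 10.22 and 10.75 in wild-type mice. The difference was -0.37 ± 0.09 (SE, adjusted p = 0.0644), and was -0.30 ± 0.09 (SE, adjusted p = 0.210) once the 3 arrays apart were left out. The mechanically and lipid-gated Kcnk2, Kcnk4 and Kcnk10 were at -0.27 ± 0.07, -0.27 ± 0.08 and -0.20 ± 0.09 (SE), with adjusted p of 0.0923, 0.10 and 0.194. On the other side, Kcnk15, Kcnk16 and Kcnk18 were at 0.31 ± 0.10, 0.24 ± 0.10 and 0.17 ± 0.08 (SE), with adjusted p of 0.137, 0.159 and 0.181. Kcnk16 is best known from pancreatic islets and Kcnk18 from sensory ganglia, and their highest log2 signals on any array were 8.17 and 6.70. Kcnk1, a leak channel of neurons and astrocytes, differed by -0.06 ± 0.07 (SE, 95% interval -0.22 to 0.09).

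The direction went with the level of signal, in Kcn genes as in all genes. With all genes divided into 4 equal bands of mean signal, 15 of 28 Kcn genes of the highest band were lower at an unadjusted p under 0.05 and 0 higher, against 25.7% and 1.77% of all genes in it. In the next band down, 11 of 29 were lower and 0 higher, against 32.2% and 2.33%. In the second-lowest band, 1 of 25 was lower and 7 higher, against 10.2% and 13.7%. The medians from the highest band to the lowest were -0.11, -0.14, 0.14 and 0.11 over Kcn genes, and -0.08, -0.13, 0.04 and 0.02 over all genes. Array upper quartiles differ in the deposited values, and quantile normalization gave 18 Kcn genes lower and 10 higher, or 19.6% and 10.9%, against 10.9% and 8.62% of all genes. Without the 3 arrays that stand apart 18 were lower and 5 higher, or 19.6% and 5.43%, against 5.85% and 4.11% of all genes; 18 of the 36 genes past the unadjusted threshold stayed past it and all 36 kept their sign.

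**Figure D3:**
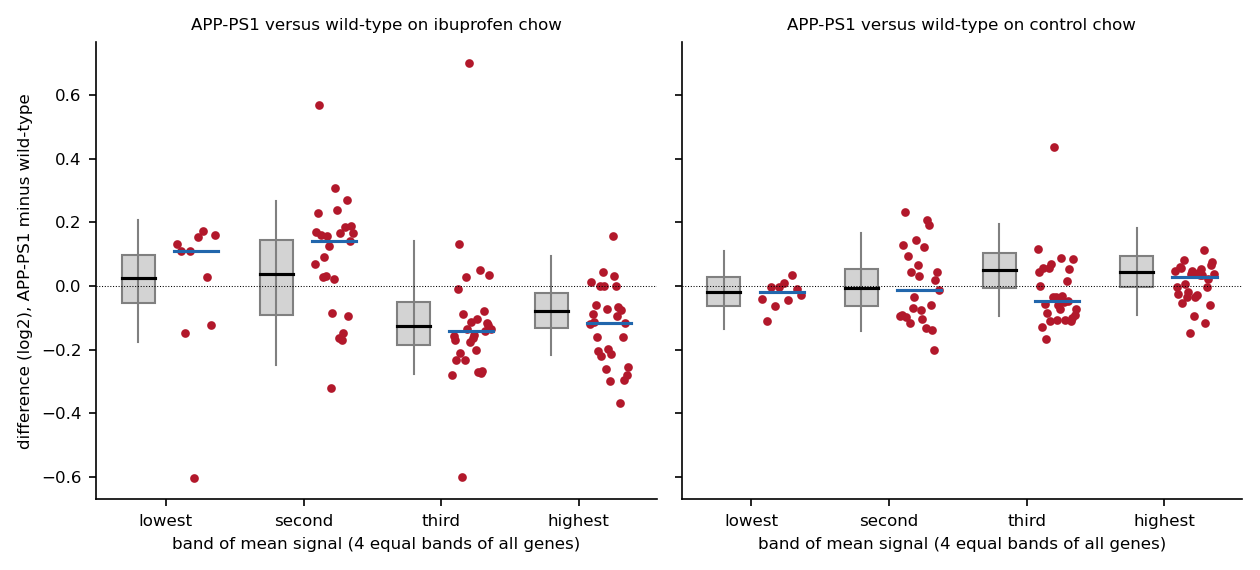
Genotype difference (APP-PS1 minus wild-type, log2) by band of mean signal, on ibuprofen chow (left) and control chow (right). Grey boxes span the middle 50% of all genes and whiskers the middle 90%, with black medians; red points are Kcn genes and blue lines their medians; Kcnj13 at 1.77 is drawn at the upper edge of the left panel.

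Of the channel partners listed by name, 0 were past the threshold on ibuprofen chow, against 0.271% of all genes. In the list of 17 partners and anchors of Kcnd and Kcna channels, 14 were below 0, 4 of them at an unadjusted p under 0.05. Of all genes, 62.2% were below 0 and 18.2% were lower at that p. In the highest band of mean signal 81.2% of all genes were below 0 and 25.7% were lower at that p. Cntnap1 and Cntnap2, which hold Kcna channels beside nodes of Ranvier, differed by -0.26 ± 0.07 and -0.17 ± 0.04 (SE), with limma adjusted p of 0.0745 and 0.0894, and Dpp6, which speeds Kcnd channels, by -0.09 ± 0.03 (SE, adjusted p = 0.158). Kcnip2, the cytoplasmic Kcnd partner of pyramidal cells, differed by -0.21 ± 0.06 (SE, adjusted p = 0.124), whereas Kcnip1, Kcnip3 and Kcnip4 lay at 0.03, 0.16 and 0.03. Of 7 measured potassium pumps and cotransporters 3 were below 0, and Slc12a5, the neuronal potassium-chloride exporter, differed by -0.15 ± 0.05 (SE, adjusted p = 0.145). Of the BK γ subunits 1 of 4, of the pacemaker channels 2 of 3 and of the measured calmodulin genes 2 of 2 were below 0.

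On control chow the APP-PS1 genotype alone was not accompanied by a called Kcn gene. Of the 92, 0 passed the limma threshold, against 0.01% of all genes, and 2 were lower and 0 higher at an unadjusted p under 0.05, against 1.07% and 4.8%. Kcnf1, a silent subunit abundant in cortex and hippocampus, had 9.82, 9.81, 9.83, 9.81 and 9.84 in APP-PS1 mice, against 9.96, 9.99, 10.17 and 9.85 in wild-type mice. The 5 APP-PS1 values were nearly equal and all below wild-type, and the difference was -0.17 ± 0.08 (SE, adjusted p = 0.829). Kcnn3, a small-conductance channel, also lay lower on all 5 arrays, between 9.97 and 10.06, against 10.07 to 10.20 in wild-type mice (-0.11 ± 0.08 SE, adjusted p = 0.935). Such complete separation downward was seen in 2.17% of Kcn genes and 0.903% of all genes, and upward in 0 Kcn genes and 2.94% of all genes.

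The other lowest p-values on control chow were small differences. Kcnmb4os2 differed by -0.20 ± 0.09 (SE, adjusted p = 0.816), Kcng1 by -0.15 ± 0.08, Kcnh4 by -0.12 ± 0.07 and Kcnb2 by -0.13 ± 0.09 (SE). On the higher side, Kcnmb1, the β subunit of vascular smooth muscle, differed by 0.21 ± 0.11 and Kcnmb2, an inactivating β subunit, by 0.19 ± 0.10 (SE). They were followed by Kcna4 (0.12 ± 0.09), Kcnk1 (0.11 ± 0.08) and Kcnab2 (0.06 ± 0.04), with limma adjusted p of 0.932 to 0.942. In all, 51 Kcn genes (55.4%) were below 0, against 42.1% of all genes, and the median was -0.01 over Kcn genes and 0.02 over all genes. Over both chows, 28 Kcn genes (30.4%) were below 0 in both genotype comparisons and 14 (15.2%) above 0 in both, against 20.2% and 15.9% of all genes. Averaged over the diets, 0 Kcn genes were called, against 0.0251% of all genes, and 18 were lower and 1 higher at an unadjusted p under 0.05, against 5.36% and 2.34%. Kcnq3 led with -0.18 ± 0.04 (SE, adjusted p = 0.159), ahead of Kcng3 (-0.34 ± 0.08) and Kcnk9 (-0.24 ± 0.06), and the highest by p were Kcne1l (0.18 ± 0.07), Kcnq1 (0.12 ± 0.06) and Kcne2 (0.40 ± 0.24). Without the 2 wild-type ibuprofen arrays that stand apart 10 Kcn genes (10.9%) were lower and 4 (4.35%) higher, against 2.89% and 5.76% of all genes.

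Ibuprofen in APP-PS1 mice gave 10 lower and 0 higher Kcn genes at an unadjusted p under 0.05, against 4.66% and 1.82% of all genes, and 0 past the adjusted threshold, against 0% of all genes. Of the 92, 56 (60.9%) were below 0, against 58.2% of all genes. In 0 of them did the groups separate completely, against 2.27% of all genes downward and 0.507% upward. The 10 lower genes were Kcnab1, Kcnab2, Kcnd2, Kcng3, Kcnh5, Kcnh7, Kcnk2, Kcnmb1, Kcnq3 and Kcnt2. Kcnt2 differed by -0.27 ± 0.09 (SE) and had 10.25, 10.49, 9.83, 10.18 and 10.27 in ibuprofen mice, against 10.55, 10.42, 10.56, 10.35 and 10.51 in control mice. Replicate 2 of the ibuprofen mice lay within the control range and the other 4 below it. Kcnh7 differed by -0.20 ± 0.08 (SE), with 10.28 as the lowest control value and replicate 2 of the ibuprofen mice above it. The smallest p-values above 0 belonged to Kcnk18 (0.15 ± 0.08), the renal rectifier Kcnj1 (0.12 ± 0.06), Kcns3 (0.12 ± 0.07), Kcnk7 (0.16 ± 0.09) and Kcne1 (0.14 ± 0.08). All had limma adjusted p = 0.716 when tested with all arrays. The count of lower genes was 5 without APP-PS1 ibuprofen replicate 4 or APP-PS1 control replicate 1, against 2.77% or 2.49% of all genes. It was 6 without APP-PS1 ibuprofen replicate 1 or 5 or APP-PS1 control replicate 3, against 4.52%, 3.88% or 3.18% of all genes.

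With ibuprofen in wild-type mice, higher Kcn genes were about as frequent as higher genes on the whole array. At an unadjusted p under 0.05, 9 (9.78%) were higher and 3 (3.26%, Kcnk15, Kcnmb4os1 and Kcnu1) lower, against 9.08% and 1.95% of all genes, and 0 passed the adjusted threshold, against 0% of all genes. Kcna4 had 10.21, 9.90, 9.89, 9.87 and 10.30 in ibuprofen mice, against 9.80, 9.65, 9.75 and 9.80 in control mice. All ibuprofen arrays were higher, with replicates 1 and 5, which stand apart, highest, and the difference was 0.29 ± 0.09 (SE, adjusted p = 0.432). Kcnc2, Kcnj14 and Kcnmb2 also did not overlap, so that 4 of 92 (4.35%) were higher on every array, against 1.94% of all genes, and 0 were lower on every array, against 0.301%. Of the 92, 40 (43.5%) were below 0, against 33.2% of all genes. Kcnk6, a leak channel of vessels and immune cells, differed by 0.33 ± 0.11, Kcne3 by 0.23 ± 0.08 and Kcnc2 by 0.18 ± 0.07 (SE). Below 0, Kcnmb4os1 gave -0.32 ± 0.13, Kcnk15 -0.24 ± 0.11, Kcnu1 -0.21 ± 0.09, Kcne4 -0.19 ± 0.09 and Kcnk3, an acid-sensitive leak channel, -0.15 ± 0.08 (SE). Without the 3 arrays that stand apart the counts were 2 higher (2.17%) and 0 lower, against 2.31% and 1.16% of all genes, and Kcna4 differed by 0.14 ± 0.06 (SE). Without wild-type ibuprofen replicate 1 the higher count was 4, against 5.21% of all genes, and without wild-type ibuprofen replicate 5 or wild-type control replicate 4 it was 5, against 3.43% or 6.05% of all genes.

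**Figure D4:**
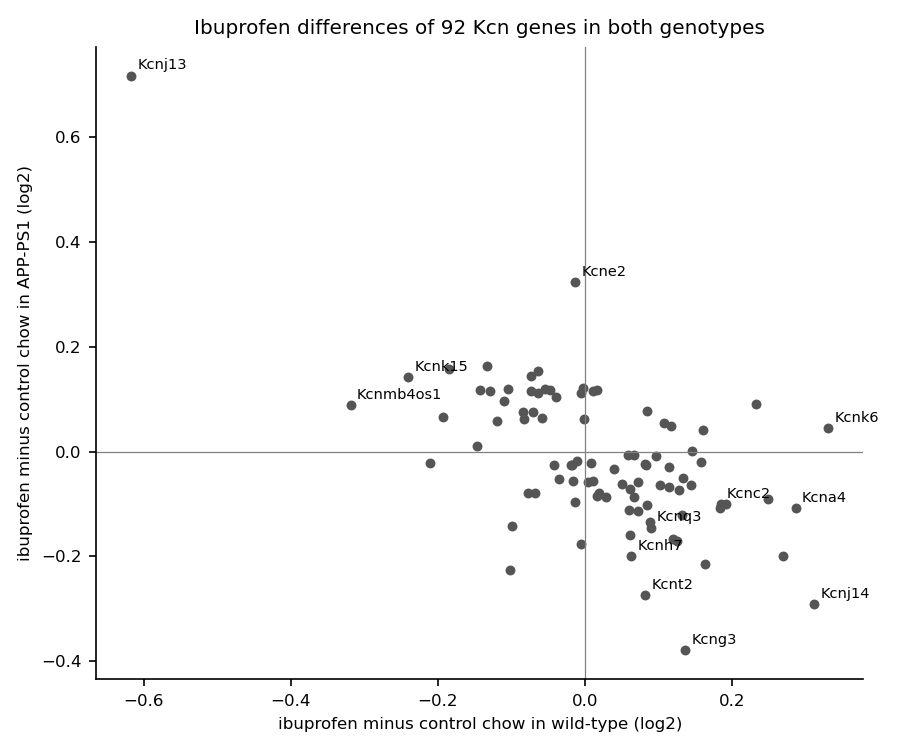
Difference of ibuprofen minus control chow (log2) for each of 92 Kcn genes in APP-PS1 mice (vertical) against wild-type mice (horizontal); no array is shared by the axes. The lower right area, below 0 in APP-PS1 and above 0 in wild-type mice, holds 43 genes, among them Kcng3, Kcnq3, Kcnh7 and Kcna4.

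The ibuprofen differences had opposite signs in the genotypes for most Kcn genes, as for most genes on the array. In 43 of 92 (46.7%) ibuprofen was below 0 in APP-PS1 and above 0 in wild-type mice, against 49.5% of all genes. In 27 (29.3%) the signs were the reverse, against 24.5%. The interaction, which tests this difference, was past the threshold for 0 Kcn genes, against 0% of all genes, and 20 were negative and 5 positive at an unadjusted p under 0.05, against 16% and 4.5%. The most negative by p were Kcna4 (-0.39), Kcng3 (-0.51), Kcnq3 (-0.23), Kcnc2 (-0.28) and Kcnt2 (-0.35), each with limma adjusted p = 0.208. On the positive side were Kcnk15 (0.38), Kcnk16 (0.34), Kcnk7 (0.30), Kcnmb4os1 (0.41) and Kcna7 (0.26), with adjusted p of 0.209 to 0.239. Without the 3 arrays that stand apart 11 (12.0%) were negative and 4 (4.35%) positive at an unadjusted p under 0.05, against 6.79% and 2.42% of all genes. Averaged over genotypes, ibuprofen gave 0 called Kcn genes, against 0% of all genes, and 2 lower (Kcnf1 and Kcnh5) and 2 higher (Kcne3 and Kcnk6) at an unadjusted p under 0.05, against 0.466% and 1.27%. Next by p were Kcnip4 at -0.08 ± 0.04 and Kcnh1 at 0.10 ± 0.05 (SE).

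Kcnj13 and Kcne2 varied far more within groups than any other Kcn gene. Kcnj13, an inward rectifier of the apical membrane of choroid plexus epithelium, had 12.31, 8.47, 11.29, 9.72 and 12.48 in APP-PS1 ibuprofen mice and 8.11, 8.64, 8.86, 12.68 and 12.39 in APP-PS1 control mice. In wild-type ibuprofen mice it had 8.89, 8.22, 7.66, 8.08 and 12.57, and in wild-type control mice 11.55, 10.35, 8.30 and 8.60. High and low arrays occurred in every group, and the median within-group SD was 1.86, against 0.57 for Kcne2, 0.35 for Kcnj14 and a median of 0.11 over the 92 genes. Kcne2, an auxiliary subunit of the same epithelium, had 8.48, 7.22, 7.86, 7.60 and 8.56 in APP-PS1 ibuprofen mice, 6.94, 7.06, 7.14, 8.67 and 8.30 in APP-PS1 control mice, 6.79, 7.41, 7.11, 7.27 and 8.29 in wild-type ibuprofen mice and 7.98, 7.24, 7.05 and 7.28 in wild-type control mice.

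The arrays high for these genes were those with high choroid plexus markers. The mean of 15 such markers, a list without Kcnj13 and Kcne2, was 9.97, 8.19, 9.07, 8.23 and 10.01 in APP-PS1 ibuprofen mice, 8.1, 8.04, 8.20, 10.34 and 9.97 in APP-PS1 control mice, 8.23, 8.0, 7.85, 8.06 and 10.28 in wild-type ibuprofen mice and 9.34, 8.4, 7.90 and 8.03 in wild-type control mice. Kcnj13 differed between genotypes on ibuprofen chow by 1.77 ± 1.0 (SE, 95% interval -0.31 to 3.85, adjusted p = 0.259) and Kcne2 by 0.57 ± 0.33 (SE, interval -0.11 to 1.25). With the marker mean as a covariate these were 0.58 ± 0.21 (SE, adjusted p = 0.112) and 0.20 ± 0.12 (SE, adjusted p = 0.237). All 15 markers were above 0 in both genotype comparisons and 0 were past the threshold. Of all genes, 62.2% were below 0 on ibuprofen chow and 42.1% on control chow. Kcnq3 and Kcng3 gave -0.27 ± 0.05 and -0.61 ± 0.12 (SE) with the same covariate, both with adjusted p = 0.0230.

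**Figure D5:**
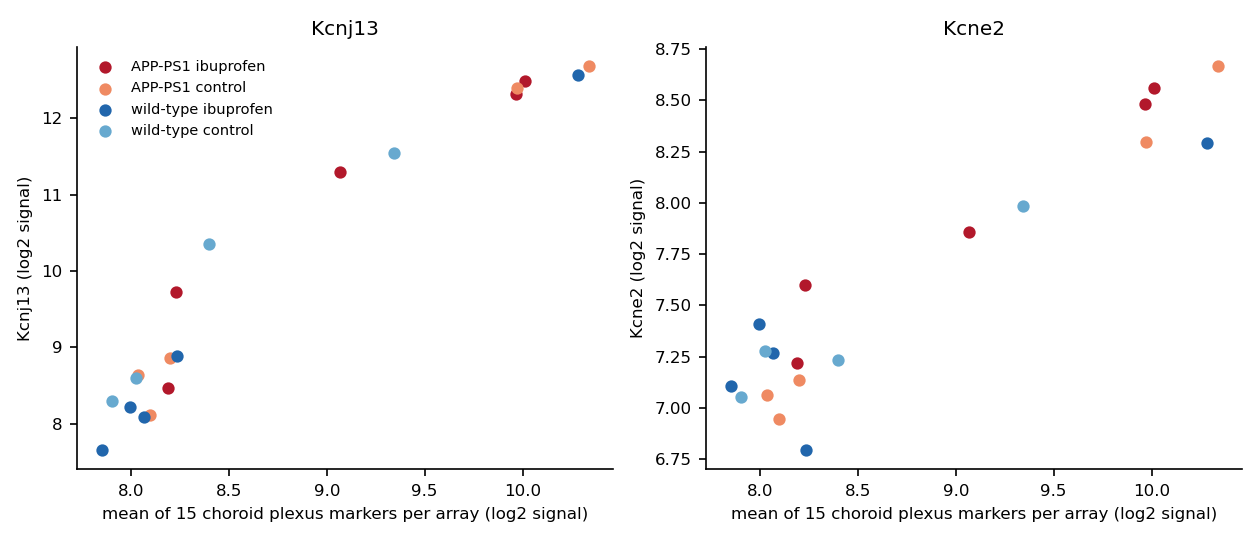
Log2 signal of Kcnj13 (left) and Kcne2 (right) in each array against the mean log2 signal of 15 choroid plexus markers, coloured by group. The 5 arrays with a marker mean of 9.97 or more are the 5 highest for Kcnj13, at 12.31 to 12.68, and come from 3 of the 4 groups.

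Several Kcn genes are known from glia and immune cells, and 0 of those named here passed the threshold. Kcnj10, the astrocytic rectifier that takes up extracellular potassium, differed between genotypes by 0.00 ± 0.09 on ibuprofen chow and 0.05 ± 0.10 on control chow (SE), with 95% intervals of -0.19 to 0.20 and -0.15 to 0.26. Its partner Kcnj16 gave -0.18 ± 0.09 and -0.03 ± 0.10 (SE). Kcnk13, a leak channel of microglia, gave 0.02 ± 0.07 and 0.03 ± 0.07 (SE), with intervals of -0.12 to 0.17 and -0.12 to 0.19. Kcna3, which activated microglia and T cells use, gave -0.09 ± 0.07 and -0.02 ± 0.08 (SE), and Kcnn4, the intermediate-conductance channel of microglia, 0.14 ± 0.08 and 0.02 ± 0.08 (SE). Kcnj8, the pericyte rectifier, gave -0.09 ± 0.08 and 0.07 ± 0.09 (SE). Of the genes with a vascular role, Kcnj2 gave -0.32 ± 0.13 and 0.15 ± 0.14, Kcnmb1 -0.17 ± 0.10 and 0.21 ± 0.11, and Kcnk6 -0.16 ± 0.10 and 0.12 ± 0.11 (SE). In the same comparisons 8 and 9 of 10 microglial markers were above 0, with medians of 0.11 and 0.10 and 0 past the threshold. Of all genes, 62.2% and 42.1% were below 0.

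The 5 Kcne genes were below 0 in 1 case on ibuprofen chow, and Kcne1l, an inhibitory subunit, differed most after Kcne2 at 0.23 ± 0.09 (SE, adjusted p = 0.162). Kcnrg, whose protein holds back Kcn channel assembly, gave -0.12 ± 0.06 and -0.01 ± 0.07 (SE) on ibuprofen and control chow. Kcnu1, the sperm channel, gave 0.16 ± 0.08 and -0.03 ± 0.09 (SE).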

How the data were processed

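The deposited values are log2 probe set summaries. Per the submitters' processing notes the authors used RMA in Partek 6.5, with settings not given in the sources used here. Values ran from 3.46 to 14.8 and no normalization was added. An annotation of 2016 gave 1 symbol to 21789 of 35556 probe sets. One limma 3.58.1 fit in R 4.3.3, with a mean per group over 19 arrays, 15 residual degrees of freedom, an intensity trend and no filter on dim genes, gave 7 two-sided comparisons. P-values were adjusted over 19938 genes at 0.05, also for the interaction. The fit was tested on simulated data. Precision is limited by the number of arrays. The software also included the data.table package (1.17.8) and pandas 2.3.3, and figures drawn with matplotlib 3.10.9 in Python 3.11.15. The members, marker lists and alternatives were chosen with earlier results of these data known. Genes named are those past the threshold, the 5 smallest p on each side in each comparison of groups and in the interaction (3 in averages), the highest member of each letter, extremes of level and spread, and a set always given. Other genes named were chosen after their values were seen.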

Additional observations from a re-analysis of the deposited data

Results flagged for a closer look

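In 14 of 268 groups of 4 or 5 arrays of the 67 named Kcn genes, 1 array lay far from the rest of its group; chance flags about 1 in 20 groups. Wild-type ibuprofen replicate 5 was that array for Kcnd2 (12.4, the others 12.09 to 12.15), Kcnh5 (9.96, the others 9.85 to 9.88), Kcnj13 (12.57, the others 7.66 to 8.89), Kcnj14 (7.45, the others 6.60 to 6.63) and Kcnj9 (9.7, the others 9.33 to 9.42), and replicate 1 was low for Kcnab2 (12.78, the others 12.87 to 12.89). Wild-type control replicate 4 was high for Kcne3 (6.76, the others 6.59 to 6.61), Kcnk7 (7.79, the others 7.69 to 7.70) and Kcnq1 (8.16, the others 7.87 to 7.91) and low for Kcnip1 (9.77, the others 9.81). Wild-type control replicate 2 was low for Kcnj14 (6.23, the others 6.55 to 6.56) and replicate 1 high for Kcnj16 (9.5, the others 9.40 to 9.41). APP-PS1 ibuprofen replicate 3 was high for Kcns1 (9.63, the others 9.32 to 9.41), and APP-PS1 control replicate 1 for Kcnk3 (9.85, the others 9.70 to 9.73).

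For 4 genes every ibuprofen array lay below the control mean in APP-PS1 mice and above it in wild-type mice: Kcna1 (interaction -0.17), Kcnc2 (-0.28), Kcnj3 (-0.13) and Kcnn2 (-0.18). For 5 genes the APP-PS1 arrays of each diet lay on opposite sides of the wild-type mean of that diet. Kcnk15 (0.38), Kcnk16 (0.34) and Kcnk7 (0.30) were above it on ibuprofen and below it on control chow, and Kcng2 (-0.30) and Kcnmb2 (-0.34) the reverse. The wild-type ibuprofen mean of Kcng2 includes replicate 5 at 11.16, with the others at 10.43 to 10.68. That of Kcnmb2 includes replicates 1 and 5 at 8.37 and 8.57, with the others at 8.12. The interaction was not past the limma threshold for any of the 9, with adjusted p of 0.208 to 0.246. The 9 genes were picked for these patterns, and the share of all genes that meet them was not tested. By sign alone, ibuprofen was below 0 in APP-PS1 and above 0 in wild-type mice for 49.5% of all genes. The genotype difference was above 0 on ibuprofen and below 0 on control chow for 21.9% of all genes, and the reverse for 42.0%.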

How the results depend on the processing

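No sign reversed for a called value under the 35 alternatives. On ibuprofen chow, the 2 Kcn genes called between genotypes became 15 with array weights, 5 with replicate number as a block and 0 with only the compared groups fitted. They became 1 without the arrays that stand apart, 1 without the wild-type ibuprofen arrays that stand apart and 1 with quantile normalization and without the arrays that stand apart, the last of these alternatives chosen after seeing the data, as was the one before it. Leaving out 1 array gave 0 (APP-PS1 ibuprofen replicate 4) to 13 (wild-type ibuprofen replicate 4), with 9 without APP-PS1 ibuprofen replicate 2. Array weights gave 1 call for ibuprofen in APP-PS1 mice, 1 for the interaction and 6 for genotype averaged over diets, against 108, 174 and 342 of all genes. Leaving out 1 array gave 0 to 3 for genotype averaged over diets. The counts of all genes with 1 array left out are not given here. These Kcn counts are therefore not set against the whole array and are no result about Kcn genes. Over all genes the ibuprofen chow count was 54, and 1004 with array weights, 197 with the replicate block, 33 without the arrays that stand apart and 50 with quantile normalization. Kcnq3 stayed between -0.35 and -0.26 and Kcng3 between -0.71 and -0.52, and with only the compared groups fitted their adjusted p was 0.190 and 0.212. The replicate numbers are in the labels with no stated shared litter or day: correlations of same-numbered arrays ran from -0.27 to 0.60, 17 of 27 were over 0.1, and 11 of 19 arrays correlated best with their own number, short of the every-pair rule set for pairing, so they were treated as unpaired. All 5 pairs of APP-PS1 control with wild-type ibuprofen were over 0.1, and whether same-numbered arrays share a batch or day was not tested. Signal over background was not tested, and the lowest of 4 equal bands of signal holds 10 Kcn genes.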
